A study of Mus musculus with 12 samples.

Results

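The interleukin and interleukin receptor genes of GFP(+) liver cells were the 52 protein-coding genes of the deposited table whose symbol starts with Il followed directly by a digit, out of 16971 genes listed. The name rule also takes in *Il4i1*, which encodes an amino acid oxidase and no cytokine, and leaves out *Il1bos*, an antisense gene. The cells came by sorting for GFP from livers of adult *Prom1CreERT2-nLacZ/+;Rosa26Lsl-GFP/+* mice on a C57BL/6 background, in which tamoxifen, injected 7 days before surgery into every animal, turns on GFP in cells that express *Prom1* and in their progeny. The control group was collected on day 0, which the labels call sham and the study describes as before surgery, and the injured groups followed bile duct ligation (BDL), an operation that stops bile from draining, by 3 or 14 days. The groups are written D0, D3 and D14. Each group mixed the sexes, with more females at D0 and more males at D3 and D14, so sex and time after surgery cannot be fully told apart, and all animals were heterozygous for both alleles. The 3 group means of the table rest on 3 D0, 3 D3 and 4 D14 libraries, and 2 further D14 libraries of the labels were left out by the authors for too few reads.

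Interleukins are secreted signals by which immune and tissue cells instruct each other, and each acts only on cells that carry its receptor chains. The IL-1 family works through receptors that recruit MyD88 and IRAK kinases and is held in check by receptor antagonists, decoy receptors and binding proteins. Most other interleukins use paired receptor chains that activate JAK kinases and STAT factors, and many share a chain, such as the common gamma chain *Il2rg* or gp130, encoded by *Il6st*. In the liver, macrophages are known sources of IL-1, IL-18 and IL-10, and gp130 signals drive the acute-phase response.

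Promoters of the IL-1 system are shown because *Il1b*, its antagonist *Il1rn*, its signalling receptor *Il1r1* and the IL-18 binding protein *Il18bp* carry much of the pattern described here. The sequences are the 250 bases before the RefSeq start on GRCm38.p6, written along the gene's strand. *Il1b* lies at chr2:129371140-129371389 on the minus strand, *Il1rn* at chr2:24336610-24336859 on the plus strand, *Il1r1* at chr1:40266336-40266585 on the plus strand and *Il18bp* at chr7:102018233-102018482 on the minus strand. *Il1rn* has 3 listed starts and *Il1r1* has 2, and the entry with most motif matches is given, which for *Il1r1* lies inside the gene, downstream of its first start. The *Il18bp* stretch also lies within the span of its gene. Capitals mark matches to the motifs searched.
Il1b: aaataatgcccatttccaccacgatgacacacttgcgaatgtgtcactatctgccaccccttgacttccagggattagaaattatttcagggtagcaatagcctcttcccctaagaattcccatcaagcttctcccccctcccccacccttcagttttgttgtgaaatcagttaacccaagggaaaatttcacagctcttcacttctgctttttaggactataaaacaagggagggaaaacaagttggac
Il1rn: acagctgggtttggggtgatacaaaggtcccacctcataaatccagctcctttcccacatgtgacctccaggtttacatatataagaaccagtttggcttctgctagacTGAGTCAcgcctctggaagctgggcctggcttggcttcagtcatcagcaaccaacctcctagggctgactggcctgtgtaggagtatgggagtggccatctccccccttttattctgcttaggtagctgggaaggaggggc
Il1r1: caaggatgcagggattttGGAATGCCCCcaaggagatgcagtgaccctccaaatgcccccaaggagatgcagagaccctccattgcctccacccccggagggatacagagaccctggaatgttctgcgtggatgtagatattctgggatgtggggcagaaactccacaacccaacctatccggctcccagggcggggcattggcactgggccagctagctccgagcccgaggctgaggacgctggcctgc
Il18bp: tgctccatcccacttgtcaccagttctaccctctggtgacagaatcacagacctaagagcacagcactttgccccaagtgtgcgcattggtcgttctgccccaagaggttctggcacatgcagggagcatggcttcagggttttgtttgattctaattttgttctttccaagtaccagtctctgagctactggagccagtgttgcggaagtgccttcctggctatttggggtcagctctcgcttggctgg

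RefSeq listed promoters for 41 of the 52 genes, as 53 entries. Both strands were searched for the AP-1 letters TGANTCA, the STAT letters TTCNNNGAA, the PU.1 letters GAGGAAG and the NF-kappaB consensus. The match in the *Il1rn* promoter is to AP-1 and the match in the *Il1r1* promoter is to NF-kappaB. AP-1 letters were held by 7 of the 53 entries (13.2%) and by 6.75% of all 32851 promoters of this length. The other shares were 7.55% against 7.25% for NF-kappaB, 9.43% against 7.02% for the STAT letters and 13.2% against 10.6% for PU.1. A match is a description of these letters, and no binding was measured.

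The table gives 1 mean per group in normalized counts (read counts that the authors scaled by the upper quartile of each library) and no value for a single library. It also gives, over all 10 libraries, the geometric mean and the count of the highest library. The more the libraries of a group differ from each other, the further the geometric mean falls below the value that the group means alone would give, and this gap was turned into a within-group spread on the log2 scale and an approximate standard error (SE) for each log2 ratio. The median spread was 0.71 over the 40 members kept and 0.58 over all genes kept. No test between animals was possible, so genes are described as higher or lower where the ratio of the authors' means passes 1.5-fold, and a ratio over 2 approximate SE is named as such. This SE takes the spread as equal in the 3 groups. Of the 52 genes, 40 had normalized counts summing to at least 10 over the libraries and were kept, of 12891 genes kept in all. A gene that reached this minimum through 1 group is bound to differ between groups, so the counts of members below are descriptions.

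The sorted cells carried transcripts of several cell types, each read from a list of markers. Of the cholangiocyte markers, *Krt19* had means of 21.5, 12.7 and 14.3 normalized counts at D0, D3 and D14, and *Epcam* 12.9, 4.97 and 7.69, so the defining markers of the labelled lineage were present. The 10 macrophage markers summed to 13560, 24521 and 21322 normalized counts in the same order, the 8 Kupffer cell markers to 10136, 22208 and 1697, and the 8 recruited monocyte markers to 347, 462 and 1917. Without *Lyz2* (2280, 4560 and 11200), the other macrophage markers summed to 11280, 19961 and 10122, and 6 of the 10 were lower at D14 than at D3. Of the 8 recruited monocyte markers, 6 were higher and 2 lower at D14 than at D0. The lower ones were *Ly6c2* (21.9, 8.19 and 6.69) and *Plac8* (228, 218 and 46.9). The 7 neutrophil markers summed to 528, 254 and 167 and the 10 hepatocyte markers to 3649, 1033 and 434. In bulk samples, fewer cells of a type and less RNA per cell cannot be told apart.

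At D3, 20 of the 40 members kept were lower than at D0 and 6 were higher, while 29.1% of all genes kept were lower and 19.2% higher. Among the lower genes were *Il10*, *Il1r1*, *Il33*, *Il34* and *Il6st*, and the higher ones were *Il18bp*, *Il1rn*, *Il1rl2*, *Il4ra*, *Il10ra* and *Il6ra*. With the ratio also over 2 approximate SE, 9 members were lower and 3 higher, against 15% and 11.4% of all genes. The median log2 ratio was -0.62 over the members and -0.02 over all genes kept. The median rests on the less abundant members. Over the 22 with an overall mean of at least 10 it was 0.18, with 7 lower and 5 higher, against 15% and 22.9% of the 7293 genes that met this limit.

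At D14, 15 of the 40 members were lower than at D0 and 10 were higher, against 28.8% and 21.2% of all genes kept. With 2 approximate SE these counts became 11 and 5, against 16.8% and 13.2% of all genes. The median log2 ratio was -0.27 over the members and -0.04 over all genes. Between D3 and D14, 12 members were higher at D14 and 13 lower, against 21.1% and 19.6% of all genes. Both comparisons with D0 share the D0 libraries. Side by side, 11 members were lower at both times, which was also the case for 19% of all genes. The 2 members *Il1rl2* and *Il4ra* were higher at both, against 10.8% of all genes. *Il6st*, *Il21r* and *Il13ra2* were lower at D3 and higher at D14, a pattern of 1.96% of all genes. Of these, *Il21r* was over 2 approximate SE at both times, *Il6st* at D3 only and *Il13ra2* at neither.

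**Figure D1:**
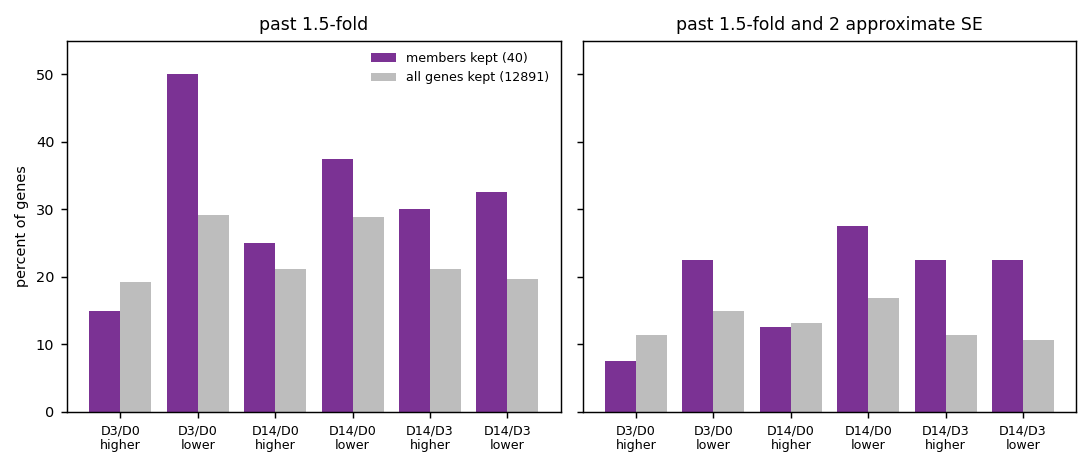
Share of the 40 members kept (purple) and of all 12891 genes kept (grey) that were higher or lower in each comparison of group means, in percent, past 1.5-fold (left) and past 1.5-fold and 2 approximate SE (right). The tallest purple bar is the 50% of members that were lower at D3 than at D0, beside 29.1% of all genes.

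Members were also counted by the role of the protein, beside the shares of all genes kept that were lower (29.1% at D3 and 28.8% at D14) and higher (19.2% and 21.2%). Of the 11 ligands kept, 8 were lower than D0 at D3, 8 were lower at D14 and 0 were higher at either time by the ratio of the authors' means. Their median log2 ratios were -0.95 and -1.83. Of the 24 receptor chains, 10 were lower and 4 higher at D3, and 6 were lower and 8 higher at D14, with medians of -0.33 and 0.37. The 4 antagonists and decoys had 2 higher and 1 lower at D3 and 2 higher and 0 lower at D14.

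**Figure D2:**
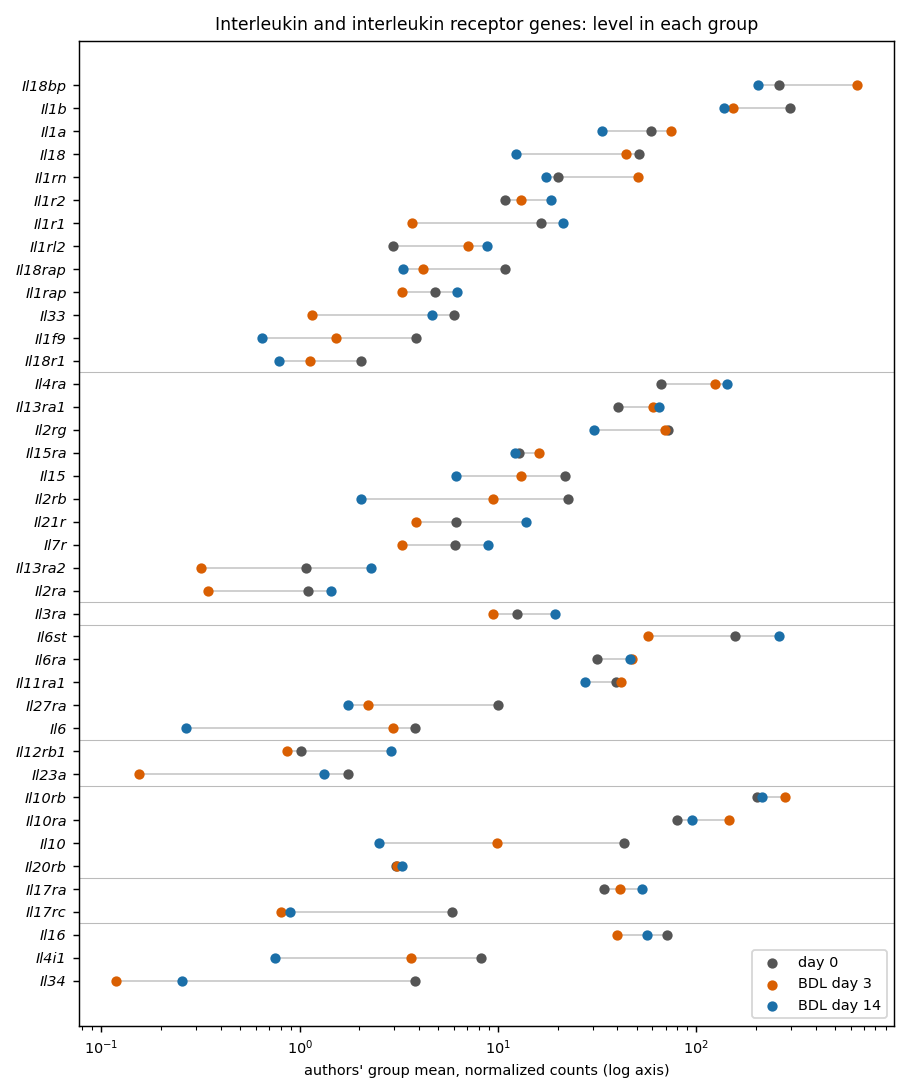
Group means of the 40 members kept at D0 (grey), D3 (orange) and D14 (blue), in normalized counts on a log axis, ordered by family and overall mean and joined by a line from the lowest to the highest group. *Il18bp* reaches 649 at D3, and *Il10* goes from 43.3 at D0 to 2.5 at D14.

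The most abundant members per kb of exon were the same 3 in each group. At D0 *Il1b* stood first with 155 normalized counts per kb, followed by *Il18bp* with 86.3 and *Il10rb*, a receptor chain shared by IL-10 and IL-22, with 53.0. At D3 *Il18bp* stood first with 214, ahead of *Il1b* with 80.2 and *Il10rb* with 73.8. At D14 *Il1b* had 72.4, *Il18bp* 67.7 and *Il10rb* 56.5, which lie closer together than the spread of *Il1b*, 0.77 on the log2 scale. *Il10* ranked 5 at D0 with 33.1 per kb, 12 at D3 and 22 at D14.

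Among the IL-1 ligands, *Il1b* (chromosome 2, 129364570 to 129371139 on GRCm38, as for all coordinates here), the secreted IL-1 that inflammasomes mature, had means of 296, 153 and 138 normalized counts at D0, D3 and D14. Its log2 ratios to D0 were -0.95 (approximate SE 0.63) and -1.10 (0.59), each past 1.5-fold and under 2 SE. *Il1a*, which also acts from the cell surface, had means of 58.9, 74.8 and 33.4 and was lower at D14 than at D3 by a log2 ratio of -1.16 (0.33). *Il18*, which induces interferon gamma, went from 51.2 and 44.2 to 12.3 at D14. Its log2 ratio to D0 there was -2.06 (0.56), and no D14 library could hold more than 49.2. The nuclear alarmin *Il33* was low at D3, with means of 6.00, 1.15 and 4.64 and a log2 ratio of -2.38 (0.52), and the deposited values leave no room for a D3 library at or above a D0 library. *Il1f9*, an IL-36 cytokine, had means of 3.84, 1.52 and 0.643. Its highest library held 59.3% of the D0 sum, and without it the log2 ratios went from -1.34 to -0.63 at D3 and from -2.58 to -1.87 at D14.

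The secreted inhibitors *Il1rn* and *Il18bp* had their highest means at D3 and the decoy *Il1r2* at D14. *Il1rn* (chromosome 2, 24336853 to 24351494), which blocks the IL-1 receptor, had means of 20, 50.7 and 17.4 normalized counts. Its log2 ratio at D3 was 1.34 (approximate SE 0.59). The highest library of *Il1rn* held 75.7 and belonged to D3, where the other 2 averaged 38.2. *Il18bp* (chromosome 7, 102014885 to 102018690), the secreted binding protein that neutralizes IL-18, had means of 261, 649 and 205. Its log2 ratio at D3 was 1.31 (0.43), and every D3 library was above every D0 library and every D14 library, since no other set of values gives the group means, the highest library and the geometric mean. It was the only member higher at D3 than at D0 without overlap, against 3.34% of all genes, and the only one lower at D14 than at D3 without overlap, against 2.66%. The decoy receptor *Il1r2* had means of 10.9, 13.1 and 18.4, and it was higher at D14 by a log2 ratio of 0.76 (0.53). Of the macrophage markers 7 of 10 were higher at D3, and of the Kupffer cell markers 6 of 8 were higher at D3 and 8 of 8 lower at D14. The part of these cells in the values of *Il18bp*, *Il1rn* and *Il18* was not tested.

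Ligand and inhibitor were also set against each other. Per kb of exon, the level of *Il1b* was 43.0 times that of *Il1rn* at D0, 8.76 times at D3 and 23.0 times at D14. The level of *Il18bp* was 1.74 times that of *Il18* at D0, 5.00 times at D3 and 5.68 times at D14. No error could be given for these ratios of 2 genes. Their size also depends on the exon lengths, taken over all annotated transcripts of a gene. These were 1.907 kb for *Il1b* and 5.535 kb for *Il1rn*.

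**Figure D3:**
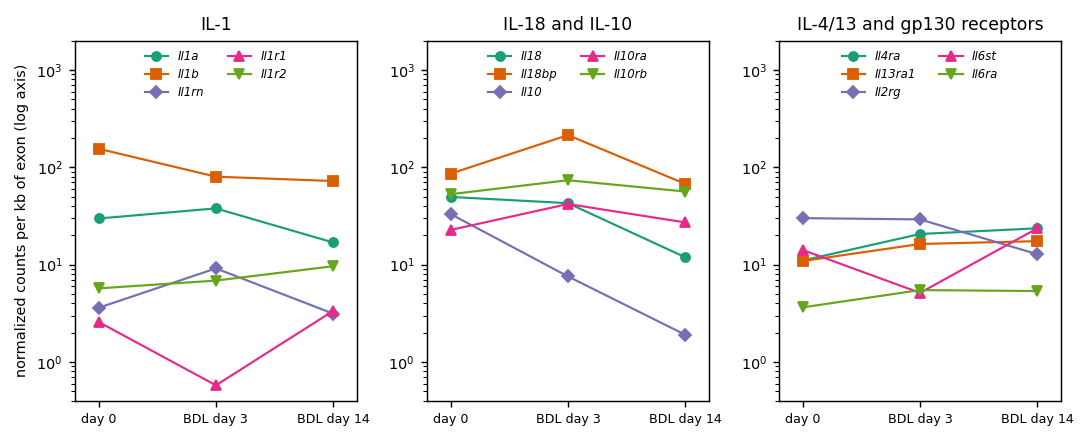
Group means per kb of exon, in normalized counts on a log axis, for the IL-1 genes (left), the IL-18 and IL-10 genes (middle) and receptors of IL-4, IL-13 and the gp130 cytokines (right) at D0, D3 and D14. *Il1r1* and *Il6st* have their lowest point at D3, *Il1rn* and *Il18bp* their highest, and *Il10* is lower at each later time.

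Of the IL-1 family receptors kept, *Il1r1* (chromosome 1, 40225080 to 40317257), the signalling receptor of IL-1, had the lowest ratio of D3 over D0. Its means were 16.4, 3.67 and 21.3 normalized counts, with log2 ratios of -2.16 (approximate SE 0.54) for D3 over D0 and 2.54 (0.50) for D14 over D3. In both comparisons the deposited values allow no overlap between libraries, which held for 3 of the 40 members kept that were lower at D3 (*Il1r1*, *Il33* and *Il34*), against 4.16% of all genes, and for 2 members higher at D14 than at D3 (*Il1r1* and *Il21r*), against 1.75%. Its accessory chain *Il1rap* had means of 4.80, 3.26 and 6.20. *Il1rl2*, the IL-36 receptor, was higher at both times, with means of 2.94, 7.03 and 8.84 and log2 ratios of 1.26 (0.66) and 1.59 (0.62). The IL-18 receptor chains *Il18rap* (means 10.9, 4.17 and 3.33) and *Il18r1* (2.03, 1.12 and 0.782) each had 1 dominant D0 library. For *Il18rap* it held 27.0 normalized counts, 82.6% of the D0 sum, and without it the log2 ratios became 0.55 and 0.22, so the lower means rest on that library. For *Il18r1* the library held 74.1% of the D0 sum, and without it the log2 ratios were 0.50 at D3 and -0.01 at D14, neither of them lower past 1.5-fold.

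*Il10* (chromosome 1, 131019845 to 131024974), an inhibitory cytokine of macrophages and lymphocytes, was the only one of the 4 kept members of its family that differed from D0 at both times. Its means were 43.3, 9.93 and 2.5 normalized counts, 4.36-fold lower at D3 and 17.3-fold lower at D14. The log2 ratios were -2.12 (approximate SE 1.00) and -4.11 (0.94). The highest library held 70.9 normalized counts and belonged to D0, where the other 2 averaged 29.5. No D3 library could hold more than 29.8 and no D14 library more than 10.0, yet the values do not settle whether each D0 library was above them. Its receptor had other values. *Il10ra*, the ligand-binding chain, had means of 79.6, 147 and 95.1, higher at D3 by a log2 ratio of 0.88 (0.45), and *Il10rb* had means of 202, 281 and 215. *Il20rb*, a chain of the IL-20 receptors, had means of 3.05, 3.09 and 3.27.

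In the common gamma chain family, *Il4ra* was higher than D0 at both times, while *Il15* and *Il2rb* were lower at both. The ratio of *Il2rb* at D3 was under 2 approximate SE. *Il4ra* (chromosome 7, 125552120 to 125579474), the chain that binds IL-4, had means of 66.4, 124 and 142 normalized counts. Its log2 ratios to D0 were 0.90 (approximate SE 0.36) and 1.10 (0.34), both over 2 SE. *Il13ra1*, its partner for IL-13, had means of 40.5, 60.6 and 64.8 and a log2 ratio of 0.68 (0.22) at D14. The decoy *Il13ra2* was low throughout, at 1.08, 0.317 and 2.29. The shared chain *Il2rg* had means of 71.8, 69.7 and 30.6, lower at D14 by a log2 ratio of -1.23 (0.35). Per kb, *Il4ra* thus stood at 0.37 times *Il2rg* at D0 and at 1.85 times at D14.

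*Il15*, which sustains NK cells and memory T cells, had means of 21.8, 13 and 6.14. Its log2 ratios were -0.75 (approximate SE 0.35) and -1.83 (0.33), and at D14 no library could overlap D0, which held for 2 of the 40 members kept that were lower at that time (*Il15* and *Il34*) and 4.74% of all genes. Its binding chain *Il15ra* had means of 12.7, 16.0 and 12.2. *Il2rb*, the chain shared by IL-2 and IL-15, had means of 22.6, 9.43 and 2.04. Its log2 ratios were -1.26 (1.38) at D3, under 2 SE, and -3.47 (1.29) at D14. *Il21r*, the IL-21 receptor, had means of 6.16, 3.86 and 13.8 and was higher at D14, with a log2 ratio of 1.16 (0.26) and no overlap with D0 or with D3. It was the only member higher at D14 without overlap with D0, against 3.16% of all genes. *Il7r* had means of 6.05, 3.28 and 8.88. *Il2ra* had means of 1.10, 0.345 and 1.44, and 83.5% of its D14 sum came from 1 library, without which the log2 ratio of D14 over D3 went from 2.06 to -0.12 and that of D14 over D0 from 0.39 to -1.80.

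Markers of T cells and NK cells differed in the same direction as *Il2rb* and *Il15*. All 8 T cell markers were lower at both times, and their sum was 104, 37.8 and 8.56 normalized counts. At D3 only *Trac* among them had a ratio over 2 approximate SE, -2.30 (0.96). Single libraries weighed on some of these markers: the highest library of *Cd3d* held 48.1 normalized counts, beside a D0 mean of 18.1. Of the 7 NK and innate lymphoid markers kept, 6 were lower at each time, the sum of the list was 74.1, 23.8 and 14.3, and *Ncr1* was at the floor at D14. The 6 B cell markers were all lower, with sums of 376, 89.8 and 55.6. *Il27ra* (means 10.0, 2.2 and 1.76), a receptor of T cells and NK cells, and *Il4i1* (8.22, 3.62 and 0.749) were lower as well. The log2 ratios of *Il27ra* were -2.18 (1.40) and -2.51 (1.31), both under 2 SE. Those of *Il4i1* were -1.18 (1.45), under 2 SE, and -3.46 (1.36). The part of T, NK and B cells in the interleukin values was not tested. Of the exon bases of *Il4i1*, 83.9% also lie in exons of *Tbc1d17* on the other strand, and whether reads were counted by strand is not given in the sources used here. The shares with a neighbour on either strand were 30.5% for *Il2rg*, 15.3% for *Il16*, 14.9% for *Il10rb*, 11.2% for *Il1a* and 1.31% for *Il1b*.

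In the gp130 family, *Il6st* (chromosome 13, 112464070 to 112510086) encodes the signalling chain shared by IL-6, IL-11, LIF and oncostatin M. Its means were 157, 57.0 and 262 normalized counts. The log2 ratios to D0 were -1.46 (approximate SE 0.57) at D3 and 0.74 (0.53) at D14, the latter under 2 SE. The log2 ratio of D14 over D3 was 2.2 (0.53). *Il6ra*, the chain that binds IL-6, had means of 31.5, 47.4 and 46.3, so that per kb *Il6st* stood at 3.88, 0.94 and 4.41 times *Il6ra*. *Il6* was low at D0 and D3, at 3.81 and 2.96, and had a mean of 0.266 at D14, where no library could hold more than 1.06. *Il11ra1*, the IL-11 receptor, had means of 39.2, 41.9 and 27.5, and reads could be shared with its near-identical copy *Il11ra2*.

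Partner genes of this family that carry other names were described too. *Lifr* had means of 39.5, 15.3 and 102 and *Osm* of 8.19, 2.76 and 15.9, both lower at D3 and higher at D14. Both ratios of *Osm* to D0 were under 2 approximate SE. *Cntfr* was 5.51 at D0, at the floor at D3 and 0.293 at D14. Of 8 sinusoidal endothelial markers, 7 were lower at D3 and 6 were higher at D14 than at D3, with sums of 1176, 637 and 1544 normalized counts. Against D0, 2 of these endothelial markers were higher at D14 and 2 were lower. *Fcgr2b* (185, 57 and 603) made up much of the D14 sum, and *Cdh5* (207, 299 and 81.5) had its highest mean at D3. The part of sinusoidal endothelial cells in the values of *Il6st*, *Il1r1* and *Lifr* was not tested.

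In the smaller families, *Il34*, the second ligand of the CSF-1 receptor, had the lowest ratio of the members kept at D3. Its mean was 3.80 at D0, at the floor at D3 and 0.256 at D14, so that it was at least 13-fold lower at D3. Its log2 ratio at D14 was -3.89 (approximate SE 0.73). *Il17rc*, an IL-17 receptor chain of epithelial and mesenchymal cells, had means of 5.84, 0.805 and 0.897, and its highest library, in D0, held 60.5% of the D0 sum. Without that library its log2 ratios went from -2.86 to -2.10 at D3 and from -2.70 to -1.95 at D14. All 9 mesenchymal markers were lower at both times, with sums of 1285, 23.7 and 119, and their part in these values was not tested. *Il17ra*, the chain common to IL-17 receptors, had means of 34.1, 41.0 and 53.3, the smallest spread of the members kept (0.20) and a log2 ratio of 0.64 (0.15) at D14. *Il3ra* had means of 12.4, 9.38 and 19.4, and *Il16*, a chemoattractant for CD4+ cells, of 71.4, 39.6 and 56.2. *Il12rb1* had means of 1.02, 0.859 and 2.88. *Il23a* had means of 1.75 at D0 and 1.33 at D14 and was at the floor at D3, at least 6.00-fold lower than at D0.

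**Figure D4:**
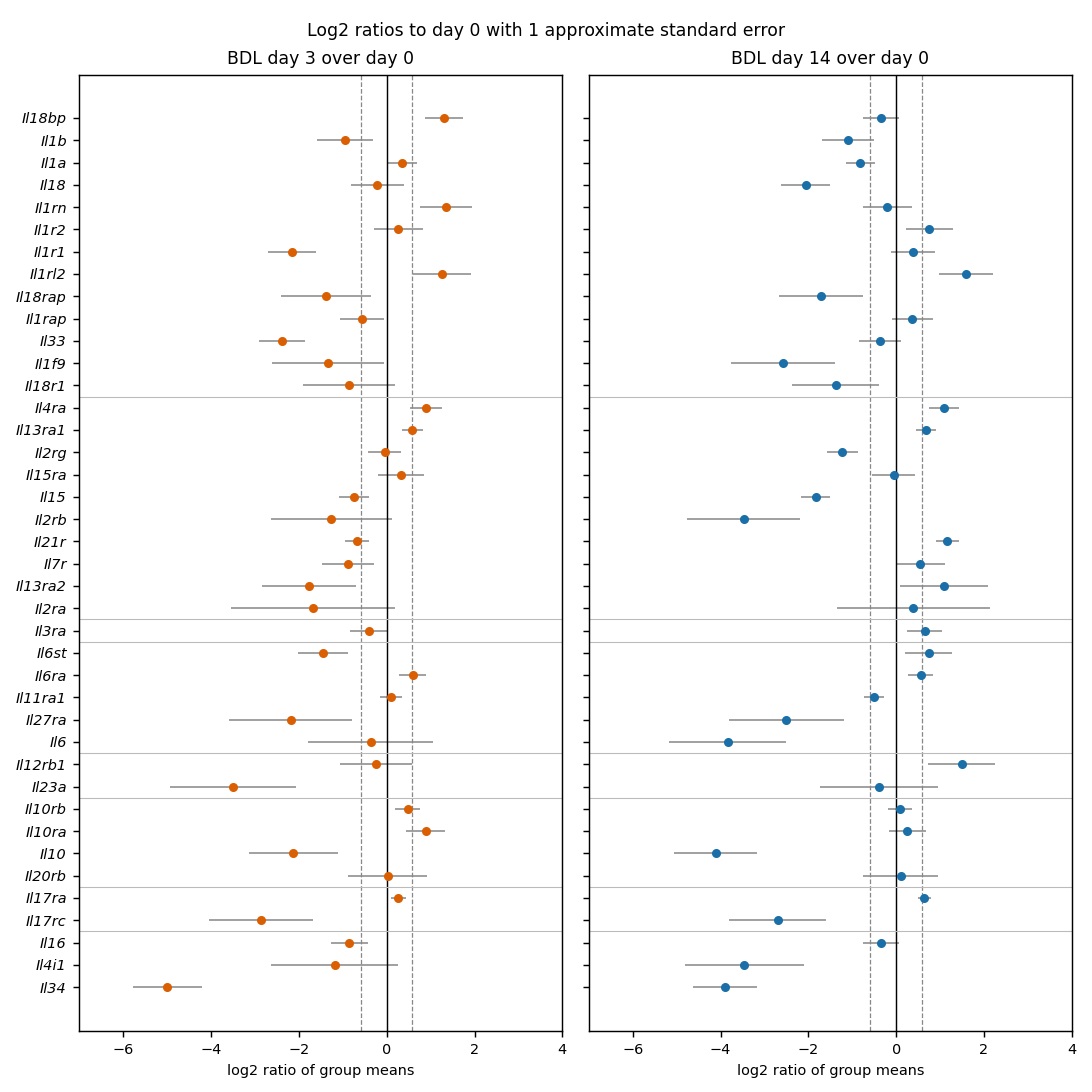
Log2 ratios of the group means to D0 for the 40 members kept, at D3 (left, orange) and D14 (right, blue), with bars of 1 approximate SE and dashed lines at 1.5-fold. *Il34* at -5.00 is the lowest point of the left panel, where its D3 mean is at the floor, and *Il10* at -4.11 the lowest of the right.

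The other 12 members (*Il11ra2*, *Il12b*, *Il12rb2*, *Il13*, *Il17f*, *Il17rb*, *Il17rd*, *Il17re*, *Il1rl1*, *Il21*, *Il27* and *Il4*) had sums under 10, and their group means ran from 0.061 to 2.08 normalized counts. The highest mean was at D0 for 8 of them, and 8 were at the floor at D3 and 9 at D14. *Il1rl1*, the receptor of *Il33*, was at the floor at D0 and D3 and had 2.08 at D14, at least 4.06-fold higher than at D0. The floor of a group, 4 times its lowest mean, was 0.512 at D0, 0.292 at D3 and 0.244 at D14.

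Genes that act downstream of these receptors or in the maturation of IL-1 and IL-18 were counted in the same way, in 4 lists. Of all genes kept, 29.1% were lower and 19.2% higher at D3, and 28.8% and 21.2% at D14. Of 11 JAK and STAT genes, 4 were lower and 0 higher at D3, and 3 were lower and 1 higher at D14. *Stat2*, which acts in interferon signalling, had means of 81.2, 28.8 and 23.4 normalized counts, and *Stat4*, which acts in IL-12 signalling, of 8.81, 1.31 and 2.05. Of 8 SOCS feedback genes, 5 were lower and 1 higher at D3, and 2 were lower and 2 higher at D14. *Socs3*, the feedback inhibitor of gp130, had means of 39.4, 23.3 and 87.0. Its log2 ratios were -0.76 (approximate SE 0.68) and 1.14 (0.64), both under 2 SE. *Socs6* had means of 6.82, 10.5 and 22, *Socs5* of 16.6, 5.01 and 4.74 and *Socs1* of 1.45, 0.715 and 0.882. The log2 ratios of *Socs1*, -1.02 (1.65) and -0.72 (1.54), were also under 2 SE.

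A list of 12 adaptor genes of the IL-1 and Toll-like receptors also held *Traf3ip2*, the adaptor of IL-17 receptors. Of the 12, 2 were higher and 2 lower at D3, and 3 were higher and 1 lower at D14. *Traf3ip2* was 1 of the 2 lower at D3 and the only 1 lower at D14. The shares of all genes kept were again 19.2% higher and 29.1% lower at D3, and 21.2% and 28.8% at D14. *Traf6*, the ubiquitin ligase downstream of IRAK, had means of 10.5, 15.9 and 38.6 and a log2 ratio of 1.88 (approximate SE 0.40) at D14. *Tollip* had means of 26.6, 41.0 and 52.5. *Traf3ip2* had means of 5.90, 1.93 and 1.53, with both ratios to D0 under 2 approximate SE. Of 7 genes for the maturation of IL-1 and IL-18, 2 were lower and 0 higher at D3 and 4 were lower and 1 higher at D14, and *Casp4* was lower at both, with means of 22.1, 10.2 and 13.3. In a list of 15 partner genes with other names, 13 were kept, of which 5 were higher and 5 lower at D3 and 5 higher and 3 lower at D14. Among them *Csf2rb*, the common beta chain, was higher at both times with means of 52.4, 119 and 96.5, as was *Clcf1* with 4.62, 10.6 and 7.75. Both ratios of *Clcf1* were under 2 approximate SE.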

How the data were processed

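GFP(+) cells of 12 labelled samples (3 at D0, 3 at D3 and 6 at D14) were profiled by mRNA-seq. Reads were trimmed by the authors in Partek Flow, mapped with STAR on mm10, assigned to GENCODE M18 genes and scaled by upper quartile normalization. The paper and the submitters' processing notes name different STAR versions, and the latter give 2.6.1d. The deposited table holds signal values, namely the mean of normalized counts per group and the sum, highest value, arithmetic mean and geometric mean over all libraries. Its columns of the authors' own comparisons (p-values, FDR, ratios, fold changes and their limits) were not used, and 0 columns held values of a single library, so depth per library is unknown and the planned leave-one-out fits could not be made.

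Weighted by 3, 3 and 4 libraries, the group means gave back the overall mean to within 0.469% for 99% of genes. Genes with a summed normalized count of at least 10 were kept, and a gene was higher or lower past a 1.5-fold ratio of means, the fold named in the study's methods. A mean of up to 4 times the lowest of its group was read as the floor, on the assumption that the lowest mean stands for no reads. The spread of a gene was the square root of 2 times the gap between the logs of the weighted group means and of the geometric mean, divided by the share of within-group degrees of freedom, and the approximate SE scaled it by the number of libraries. It is least exact where the spread is over 1, as for 14 of the 40 members kept. Groups were said not to overlap where no set of library values could give the deposited means, highest value and geometric mean otherwise. The spread, overlap, highest-library and fold steps were tested on simulated data. Exon lengths came from GENCODE M21, where all 52 members had the coordinates of the table (the table's end minus 1). They count every base in an exon of any transcript of the gene once, so a single transcript can be shorter. Every kept member is named with its means, and genes of the pathway lists where past 1.5-fold in both comparisons with D0, except 1 gene that is not reported here. The members, lists and rules were chosen with earlier results of these data known, and the SE and overlap rules after the data were seen. Python 3.11.15, numpy 2.4.6 and pandas 2.3.3 were used.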

Additional observations from a re-analysis of the deposited data

How the results depend on the processing

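Without a filter on low values, 23 members were lower at D14 than at D0. With an overall mean of at least 10, 7 were lower than D0 at D3 and likewise 7 at D14, 6 were higher at D14 than at D0 and 3 than at D3, and the median log2 ratio at D3 turned from -0.62 to 0.18. A 2-fold limit left 3 members higher at D3 and 5 at D14. A 4-fold limit left 0 higher and 7 lower at D3, 0 higher and 9 lower at D14, and 6 higher and 3 lower between D3 and D14. The shares of all genes were not counted at the 2-fold and 4-fold limits or without the filter. With an overall mean of at least 10 they were counted only for D3 over D0. Where no share was counted, the member counts cannot be read against other genes. Asking also for 2 approximate SE left 3 higher and 9 lower at D3 and 5 higher at D14. Asking that the groups cannot overlap left 1 higher and 3 lower at D3, 1 higher and 2 lower at D14, and 2 higher and 1 lower between the BDL groups. The last 2 were chosen after the data were seen. Fewer genes or stricter limits account for these smaller counts by construction. Median-ratio scaling, quantile normalization, a pseudocount of 1, the floor at the lowest mean and leaving out the highest library of a gene kept all 6 counts within 1.5-fold. Quantile normalization brought the median log2 ratios to D0 to -0.24 at D3 and -0.01 at D14, while those of all genes kept became 0.11 and 0.10. The median of D14 over D3, 0.02 as reported, was -0.12 without a filter, -0.39 with an overall mean of at least 10 and -0.08 without the highest libraries. Of 546 recomputed log2 ratios of single members, 55 moved by over 1.5-fold and 18 changed sign, 5 of them past 1.5-fold as reported and 13 within it. Among the 5, quantile normalization turned *Il18r1* at D3 to 0.22, and leaving out the highest library turned it to 0.50, *Il18rap* to 0.55 (D3) and 0.22 (D14), and *Il2ra* between D3 and D14 to -0.12. Of the 13, 5 also moved by over 1.5-fold: *Il12rb1* from -0.25 to 0.87, *Il1rap* from -0.56 to 0.13 and *Il6* from -0.36 to 0.41 at D3 and *Il23a* from -0.40 to 0.47 at D14 under quantile normalization, and *Il2ra* from 0.39 to -1.80 at D14 without its highest library. The cause of the quantile values was not tested. No paired analysis was possible because the labels give no replicate numbers and the table holds no value per library. Members under 10 normalized counts rest on few reads, and their ratios are limited by depth.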
